A study of Mustela putorius furo and Mus musculus with 4 samples.

Results

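The S100 calcium-binding proteins were compared between primary astrocytes of 2 species. The genes were chosen by symbol, without regard to case, and the rule named 10 of them: S100b, S100a1, S100a4, S100a6, S100a8, S100a10, S100a11, S100a13, S100a16 and S100pbp. All 10 had values in mouse astrocytes and 8 had values in both species, among 13373 symbols shared by the species. Ferret S100A10 and S100A11 were not analysed here. Each species was represented by 2 libraries. The ferret cells came from the cerebral cortex of postnatal day 1 pups (Mustela putorius furo), and the mouse cells from the cortex of ICR pups of postnatal day 1 to 3. No group carried a gene alteration, and all cultures were grown for 14 days in flasks with fetal bovine serum, shaken to remove loosely attached cells, replated and then kept without serum before RNA was taken. The flasks differed in that cells of a single ferret pup filled several flasks, whereas cells of several mouse pups were pooled in a single flask. Levels are given as FPKM, the fragments per kilobase of exon and 1000000 mapped fragments, with the SD of the 2 libraries of a species, and SE denotes the standard error of a log2 difference. The sources do not say whether the duplicates were separate cultures, so the p-values measure the spread between these libraries, which may be technical.

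S100 proteins are small proteins of vertebrates that bind calcium through a pair of EF-hands, a calcium-binding fold made of a helix, a loop and a helix. Most form dimers and, on binding calcium, expose a surface that docks onto target proteins such as annexins, myosin and protein kinases. S100B is a common marker of astrocytes, and several family members rise in reactive astrocytes or act outside the cell through receptors such as RAGE and TLR4.

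The calcium-binding loop of the second EF-hand is the part that the family members share most closely, and it is shown here so that the members can be told apart. The 36 bases that encode this 12-codon loop were read from the mouse coding sequences of GENCODE release M21. Capitals mark codons 1, 3, 5 and 12, whose side chains hold the calcium ion in a canonical EF-hand.
S100a1: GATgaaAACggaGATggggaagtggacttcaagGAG
S100a4: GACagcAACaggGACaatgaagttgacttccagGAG
S100a6: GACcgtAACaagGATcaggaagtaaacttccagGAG
S100a8: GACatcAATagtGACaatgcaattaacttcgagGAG
S100a10: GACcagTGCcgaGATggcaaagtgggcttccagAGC
S100a11: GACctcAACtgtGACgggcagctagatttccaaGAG
S100a13: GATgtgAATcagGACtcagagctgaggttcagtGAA
S100a16: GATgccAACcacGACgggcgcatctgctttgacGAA
Each of these loops except that of S100a10 matched the canonical pattern of acidic or amide residues at the marked codons. S100a10 did not match it, and S100A10 is known as the family member whose EF-hands do not bind calcium. S100pbp is no S100 protein but a binding partner of S100P, and has no such loop here.

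Of the 10 genes, 8 lie on mouse chromosome 3 (GRCm38), where they form the known S100 cluster. S100a1, S100a13, S100a16, S100a4, S100a6 and S100a8 lie in this order, among further S100 genes, between 90511034 and 90670035, and S100a11 (93520488 to 93526287) and S100a10 (93555080 to 93564643) lie farther along. S100b lies on chromosome 10 from 76253853 to 76261159 and S100pbp on chromosome 4 from 129148005 to 129189727. The S100a1 and S100a13 genes stand head to head on opposite strands, with 42 bases between them.

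S100 transcripts were abundant in both species, and the mix of members differed. S100a6 led in each of the 4 libraries. S100b and S100a13 came next in ferret astrocytes, where S100a4 was scarce. S100a11, S100a10 and S100a16 came next in mouse astrocytes. By limma on log2(FPKM + 1) with Benjamini-Hochberg adjustment over 10204 genes, all 8 members with values in both species could be tested. A gene was called where the adjusted p was under 0.05 and the log2 difference, ferret minus mouse, was above 1 or below -1. S100b was called higher in ferret astrocytes, and S100a4, S100a16 and S100a6 were called lower. The counts were 1 of 8 higher, where 13.1% of all tested genes were called higher, and 3 of 8 lower, where 30.1% of all tested genes were called lower. The share of members called, 4 of 8, was thus near the 43.2% of all tested genes. The libraries of the species did not overlap for 7 of the 8 members, and for 94.1% of all tested genes. The median log2 difference of the 8 members was -0.75, and that of all tested genes -0.35.

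**Figure D1:**
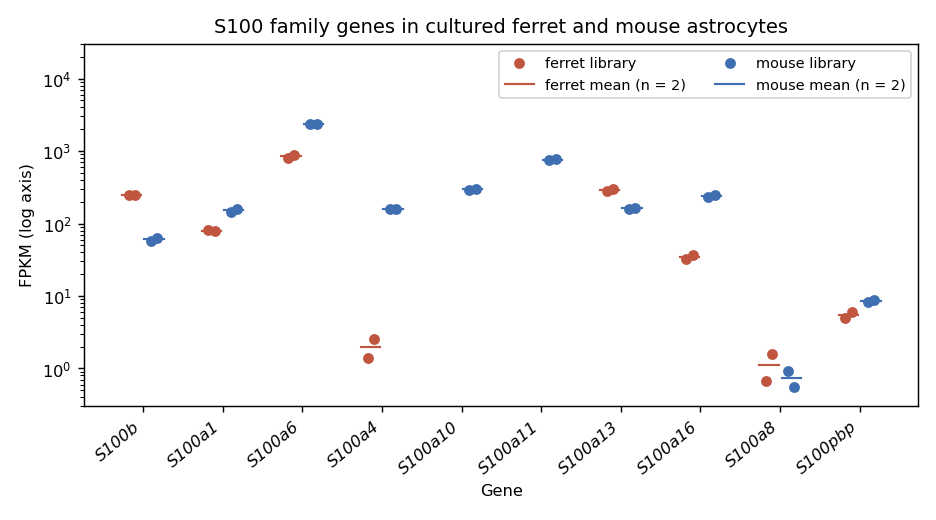
FPKM on a log axis for the 10 S100 genes, with a point for each library and a line for the mean of 2 libraries. S100a6 is the highest gene in both species, S100a4 stands at 159 and 161 FPKM in mouse and at 1.39 and 2.52 in ferret libraries, and S100a10 and S100a11 are shown for mouse only.

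The overall level of FPKM differed between the species. Summed over the 13373 shared symbols, FPKM came to 227391 and 236543 in ferret and to 300465 and 308121 in mouse libraries. When each library was brought to the mean of these 4 sums, the tested genes had a median log2 difference of -0.01. Differences of members are therefore given on both scales, the second being called rescaled values. On the rescaled values 2 members were called higher (19.1% of all tested genes) and 3 lower (21.7% of all tested genes), the added member being S100a13, and 40.9% of all tested genes were called. The same 2 and 3 members were called after rescaling each library to a sum of 1000000 (21.5% of all tested genes higher, 24.9% lower and 46.4% in all) and after quantile normalization (20.4% higher, 20.4% lower and 40.8% in all). With 2 libraries a species, no exact permutation test of a single gene can pass a threshold of 0.05. Species, genome annotation and culture cannot be told apart in this design. Gfap, the filament protein by which astrocytes are recognised, was present in all libraries, with 1481 and 1522 FPKM in ferret and 1429 and 1546 in mouse. The 9 astrocyte markers compared were all above 0, with sums of 3328 and 3430 FPKM in ferret and 3201 and 3467 in mouse libraries. Most of these sums came from Gfap and from Aldoc, which had 1619 and 1700 FPKM in ferret and 916 and 1015 in mouse libraries. By limma 0 of the 9 were called higher (13.1% of all tested genes) and 6 lower (30.1% of all tested genes). After rescaling, 1 of them, Aldoc, was called higher (19.1% of all tested genes) and 4 lower (21.7% of all tested genes). Slc1a2, a glutamate transporter of astrocytes, was near 0 in ferret astrocytes at 0.133 and 0.178 FPKM, with 47.1 and 51.8 in mouse astrocytes. Of 8 neuronal markers 6 had values in both species, with sums of 25.7 and 26.8 FPKM in ferret and 31.2 and 32.2 in mouse libraries, most of it from Map2. Stmn2, outside these sums, had 124 and 127 FPKM in mouse astrocytes and was not analysed in ferret. Of the 3 neuronal markers tested, Dcx and Nefl were called higher in ferret astrocytes (13.1% of all tested genes). Map2 was not called (log2 difference -0.68 as deposited and -0.30 on the rescaled values).

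S100b and S100a1 encode the closely related S100B and S100A1, which can pair with each other and regulate kinases, calcium release and the cytoskeleton. S100b stood at 247 and 244 FPKM in ferret astrocytes, against 57.3 and 63.1 in mouse astrocytes. Both ferret libraries lay far above both mouse libraries. The means were 246 ± 2.59 (SD, n = 2) and 60.2 ± 4.05 (SD, n = 2), a ratio of 4.08. The log2 difference was 2.01 (SE 0.063, limma, adjusted p = 1.25e-09), and 3.89% of all tested genes had a larger one. On the rescaled values it was 2.40.

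The length of the gene model enters this value. The mouse S100b gene has 1484 bases of exon, of which 279 bases are coding in the longest annotated coding sequence, so that the exonic length is 5.32 times the coding length. The study's length table gives the ferret S100B model about the length of a coding sequence alone, without untranslated regions. FPKM divides by the length of the model, and fragments in unannotated untranslated regions are not counted. The part of the gene models in the S100b difference was not tested. Among the other members, the exonic length of the mouse gene ranged from 1.48 times the coding length for S100a13 to 7.93 times for S100pbp. It was 5.06 times for S100a6 and 1.91 times for S100a4. The coding length was again that of the longest annotated coding sequence, 483 bases for S100a13, and a shorter one would raise the ratio. The lengths of these ferret models were not used here.

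S100a1 went the opposite way. Its FPKM was 80.2 and 78.3 in ferret astrocytes, compared with 146 and 160 in mouse astrocytes, without overlap. The log2 difference was -0.94 (SE 0.063, limma, adjusted p = 2.75e-07), within the limit of 1 for a call, and -0.55 on the rescaled values. The ratio of S100b to S100a1 was thus above 1 in both ferret libraries and below 1 in both mouse libraries. S100B is also made by cells of the oligodendrocyte lineage. Of 10 markers of that lineage 9 had values in both species, and their summed FPKM was 167 and 185 in ferret astrocytes, as opposed to 67.5 and 67.8 in mouse astrocytes. Of the 7 tested, 3 were called higher by limma, among them Sox10 and Mbp, where 13.1% of all tested genes were called higher. Called lower were 0, where 30.1% of all tested genes were called lower. Olig2, at 4.92 and 5.18 FPKM in ferret and 9.62 and 9.80 in mouse libraries, and Cspg4 had log2 differences of -0.82 and -0.47 and were not called. Olig1 had 107 and 117 FPKM in mouse astrocytes and was not analysed in ferret. Cnp made up the largest part of the sums, with 79.9 and 92.0 FPKM in ferret and 45.6 and 47.7 in mouse libraries. Sox10, a transcription factor of this lineage, had 26.3 and 30.9 FPKM in ferret and 0.231 and 0.304 in mouse libraries. The part of such cells in the S100b level was not tested. The paper stained replated cultures in serum for markers of astrocytes, oligodendrocytes, microglia and neurons. It reports nearly all cells as astrocytes in both species, with few microglia, few neurons in ferret only, and no share of oligodendrocytes. In RNA of whole cultures, fewer cells of a type and less RNA per cell cannot be told apart.

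S100a6, also called calcyclin, encodes a protein found in proliferating cells that binds calcyclin-binding protein and annexins. It was the most abundant member in every library, with 808 and 886 FPKM in ferret and 2373 and 2368 in mouse astrocytes. The mouse libraries lay above both ferret libraries by a factor of 2.80 between the means. The log2 difference was -1.49 (SE 0.070, limma, adjusted p = 2.07e-08) and -1.09 on the rescaled values. In spite of this difference, S100a6 ranked at place 18 and 19 from the top among all shared symbols in the ferret libraries and at place 5 in both mouse libraries.

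S100a4, which encodes a partner of nonmuscle myosin that is linked to cell motility, showed the widest gap of the 8 members. Its FPKM was 1.39 and 2.52 in ferret astrocytes, against 159 and 161 in mouse astrocytes. The mouse duplicates agreed closely, while the ferret values were low and 1.81 times apart. The log2 difference was -5.79 (SE 0.144, limma, adjusted p = 2.80e-10). Of the 10204 genes tested, 23 had a lower one. On the rescaled values the difference was -5.48. The rank within a library, which does not depend on the scaling between species, showed the same gap. S100a4 was at percentile 34.1 and 40.3 of the shared symbols in the ferret libraries and at percentile 98.2 and 98.1 in the mouse libraries.

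S100A4 and S100A6 are also known from fibroblasts, and S100A4 from macrophages and other blood-derived cells. Of 10 markers of meningeal fibroblasts, all had values in both species, and their summed FPKM was 150 and 136 in ferret astrocytes, compared with 878 and 833 in mouse astrocytes. Of these, 8 were called lower in ferret astrocytes by limma (30.1% of all tested genes). The 1 called higher was Postn (13.1% of all tested genes). After rescaling, 7 were called lower (21.7% of all tested genes), and Postn and Pdgfra higher (19.1% of all tested genes). Of 15 microglial markers 14 had values in both species, with sums of 77.5 and 76.6 FPKM in ferret and 828 and 824 in mouse libraries. Of the 14 tested, 13 were called lower (30.1% of all tested genes) and 0 higher. Cx3cr1 is listed at 0 in both ferret libraries. The sums of 6 endothelial markers were 0.319 and 0.283 FPKM in ferret and 25.0 and 25.4 in mouse libraries, of which Cdh5 gave 22.0 and 22.5 in mouse. Only Cdh5 and Tek were tested, and both were called lower (30.1% of all tested genes). Pecam1, Cdh5 and Tek are listed at 0 in both ferret libraries, and Cldn5 in both mouse libraries. The summed levels of these 3 lists were thus lower in ferret astrocytes, as were S100a4 and S100a6. Among the other members, S100a16, S100a1 and S100pbp also had lower FPKM in ferret, and S100b and S100a13 had higher FPKM. The part of such cells in the differences of S100 members was not tested.

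S100a13, a member that takes part in the release of FGF1 and interleukin-1 alpha without a signal peptide, had the higher values in ferret astrocytes. Its FPKM was 280 and 298 in ferret astrocytes, as opposed to 161 and 164 in mouse astrocytes, without overlap. The means were 289 ± 13.1 (SD, n = 2) and 162 ± 2.22 (SD, n = 2). The log2 difference of 0.83 (SE 0.060, limma, adjusted p = 4.95e-07) was within the limit for a call. On the rescaled values it was 1.22, and the gene was called higher. S100a1, its head-to-head neighbour in the mouse genome, had a difference of the opposite sign on both scales. The library kit kept the strand of the RNA, but the strand setting of the quantification is not given in the sources used here.

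S100a16, a widely expressed member of less known function, stood at 32.5 and 36.3 FPKM in ferret astrocytes, against 232 and 244 in mouse astrocytes. Every mouse library was far above every ferret library, and the means were 6.92 times apart. The log2 difference was -2.76 (SE 0.068, limma, adjusted p = 2.81e-10), and -2.37 on the rescaled values. S100a16 was at percentile 89.0 and 90.0 of the shared symbols in ferret astrocytes and at percentile 98.8 and 98.9 in the mouse libraries.

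S100a8, which forms the antimicrobial protein calprotectin together with S100a9 and is abundant in neutrophils, was scarce in both species. Its FPKM was 0.669 and 1.57 in ferret astrocytes, compared with 0.914 and 0.558 in mouse astrocytes, and the groups overlapped. The log2 difference was 0.26 (95% interval -0.14 to 0.66, limma, adjusted p = 0.189), which did not pass the test. After quantile normalization it was 0.59 (limma, adjusted p = 0.0299) and still within the limit for a call. With each library left out in turn it ranged from 0.11 to 0.57, and without ferret replicate 1 the adjusted p by limma was 0.0113. It passed the filter on low values only through the ferret mean of 1.12. S100a9, its partner, is listed at 0 in both mouse libraries. Of 12 neutrophil and granule markers 6 had values in both species, with sums of 0.613 and 0.552 FPKM in ferret and 2.43 and 2.23 in mouse libraries. Mpo and Elane are listed at 0 in both mouse libraries and Ctsg in all 4 libraries.

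S100pbp, which encodes the S100P-binding protein of the nucleus, stood at 4.98 and 5.97 FPKM in ferret astrocytes, as opposed to 8.31 and 8.73 in mouse astrocytes. The groups did not overlap, and the log2 difference was -0.56 (SE 0.088, limma, adjusted p = 1.77e-04), within the limit for a call. On the rescaled values it was -0.22 (limma, adjusted p = 0.0352).

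**Figure D2:**
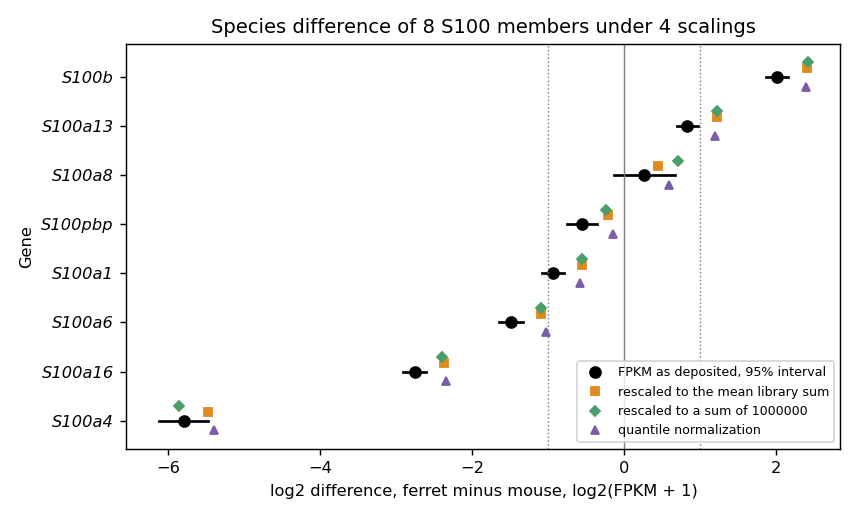
Log2 differences between ferret and mouse astrocytes for the 8 members with values in both species, with the 95% interval for FPKM as deposited and the values under 3 other scalings. Dotted lines mark a log2 difference of 1 in either direction. S100a4, S100a16 and S100a6 lie to the left of the line and S100b to the right under each scaling, and S100a13 crosses the line under the other 3 scalings.

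S100a10 and S100a11 were measured in mouse astrocytes. S100A10 binds annexin A2 and plasminogen activator, and S100A11 binds annexin A1. S100a11 stood at 743 and 783 FPKM in the mouse libraries, and was second to S100a6. The processed pseudogene S100a11-ps is listed at 0 in both. S100a10 stood at 294 and 304 FPKM. RefSeq names both genes in the ferret assembly ASM1176430v1.1, which is another assembly than the one the authors used. The level of either gene in ferret astrocytes was not analysed here.

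The order of the members within a species was clear in most steps. In ferret astrocytes the mean FPKM fell from S100a6 (847) over S100a13 (289), S100b (246), S100a1 (79.3), S100a16 (34.4) and S100pbp (5.48) to S100a4 (1.96) and S100a8 (1.12). The libraries of neighbours in this order did not overlap, except those of S100a4 and S100a8. In mouse astrocytes S100a6 (2371) was followed by S100a11 (763), S100a10 (299), S100a16 (238), S100a13 (162), S100a4 (160), S100a1 (153), S100b (60.2), S100pbp (8.52) and S100a8 (0.736). S100a4 and S100a1 overlapped here, and the means of S100a13 and S100a4 were 1.01 times apart. S100b was thus at place 3 of 8 genes in ferret and at place 8 of 10 in mouse astrocytes. These levels are per length and rest on the gene models of each species.

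The mix of the family was computed within each library, so that scaling between species does not touch it. The lengths of the gene models of each species still enter every share, and their part was not tested. The 7 S100 genes with values in both species, without S100pbp, summed to 1450 and 1547 FPKM in ferret astrocytes, against 3129 and 3161 in mouse astrocytes. S100a6 made up 55.7% and 57.3% of this sum in ferret astrocytes, against 75.8% and 74.9% in mouse astrocytes. S100a13 made up 19.3% in each ferret library and 5.14% and 5.19% in the mouse libraries. S100b made up 17.1% and 15.8% in ferret astrocytes, compared with 1.83% and 2.00% in mouse astrocytes. S100a16, at 2.24% and 2.35% in ferret and 7.40% and 7.73% in mouse libraries, and S100a4, at 0.096% and 0.163% against 5.09% and 5.08%, took larger shares in mouse astrocytes. The shares of the species did not overlap for any of the 7 genes, S100a8 and S100a1 included, so this does not set single members apart. How often shares would not overlap among other genes was not computed. As FPKM, the libraries of the species did not overlap for 94.1% of all tested genes. S100a8 held 0.046% and 0.101% in ferret and 0.029% and 0.018% in mouse libraries.

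S100a1 differed little in its share of these 7 genes. It held 5.53% and 5.07% in ferret astrocytes, as opposed to 4.67% and 5.06% in mouse astrocytes, so that the gap between the nearest libraries was smaller than the gap between duplicates. The mix depends on which genes form the sum. S100a11 and S100a10 were also added in mouse astrocytes, a choice made after seeing the data. S100a6 made up 56.4% ± 0.845 (SD, n = 2) of these 9 genes. In ferret astrocytes it made up 56.5% ± 1.09 (SD, n = 2) of 7 genes. These sums hold different genes, since S100a11 and S100a10 were not analysed in ferret, so the shares are not comparable. S100a11 then held 18.1% and S100a10 7.10% of the mouse sum. The share of S100a1 was then 3.51% and 3.76% in mouse astrocytes, below both ferret libraries, whose sums lack S100a11 and S100a10. It was also lower in mouse astrocytes without S100b in the sum, at 4.76% and 5.16% against 6.67% and 6.01% in ferret. Over every S100 gene of each species it was 3.50% and 3.76% against 5.40% and 4.95%, where the sums again hold different genes. The shares were not tested, since a permutation of 4 libraries is too coarse.

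**Figure D3:**
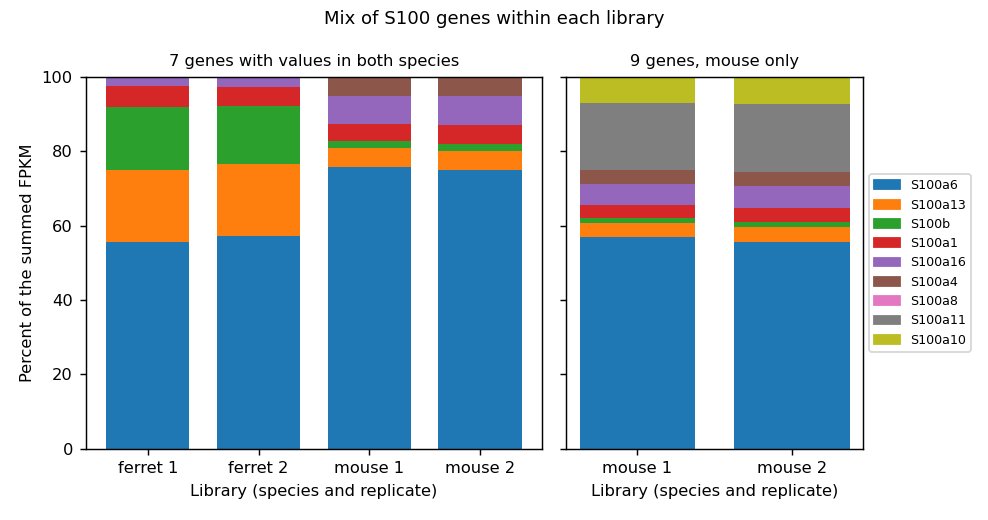
Percent of the summed FPKM of S100 genes in each library, for the 7 genes with values in both species and, in mouse libraries, for 9 genes with S100a11 and S100a10. S100a13 and S100b hold larger parts of the bars in ferret and S100a16 and S100a4 in mouse libraries, while S100a6 is the largest part throughout.

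Other S100 symbols were measured as well, and S100a2 stood apart among them. S100A2 is a member best known from epithelial cells. It had 29.2 and 29.4 FPKM in ferret astrocytes, against 0.058 and 0.048 in mouse astrocytes, and was called higher with a log2 difference of 4.85 (SE 0.072, limma, adjusted p = 1.91e-11). The mouse S100a2 gene lies inside the annotated S100a3 gene, on chromosome 3 from 90590247 to 90591508, and its model holds coding sequence alone. In ferret astrocytes S100P had 6.94 and 7.63 FPKM, and S100A12 is listed at 0 in both. In the mouse libraries S100a7a had 4.98 and 5.24 FPKM and S100a3 1.89 and 1.60. S100g and S100a14 were under 1 FPKM in the mouse libraries, and S100a5, S100a7l2, S100a9 and S100z are listed at 0 there. Ferret S100A5 was listed at 0 in replicate 1 and had 0.197 FPKM in replicate 2.

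**Figure D4:**
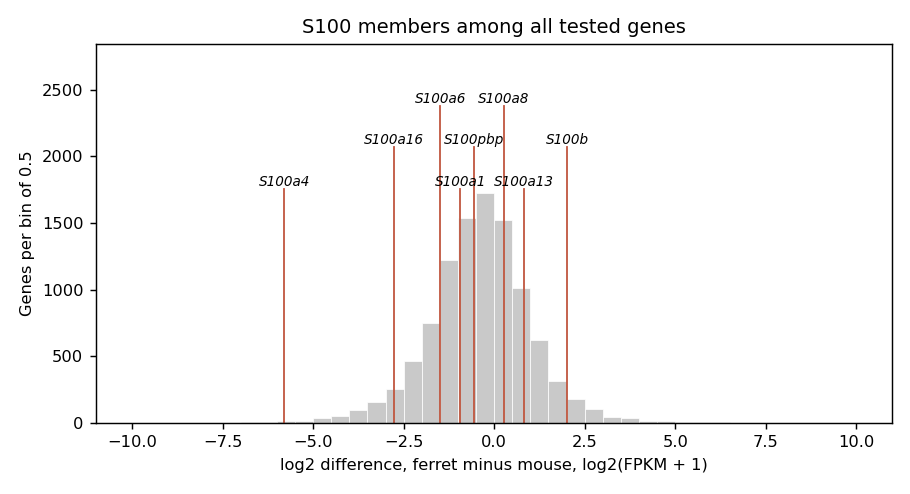
Histogram of the log2 differences of 10204 tested genes in bins of 0.5, with a line for each of the 8 S100 members. S100a4 lies at the far left, where 23 genes are lower, S100a16 and S100b lie in the flanks, and the other members lie within the main body of genes.

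The proteins that S100 members bind or signal through were given as a list of 28 genes, of which 23 had values in both species and 18 were tested. Of these, 4 were called higher (13.1% of all tested genes) and 8 lower (30.1% of all tested genes) in ferret astrocytes, and 6 were not called. On the rescaled values 5 were called higher (19.1% of all tested genes) and 4 lower (21.7% of all tested genes), so that the share called lower was near that of all tested genes. The median log2 difference was -0.74 as deposited and -0.35 on the rescaled values, where the medians of all tested genes were -0.35 and -0.01.

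Among the intracellular partners, Anxa11, an annexin that binds S100A6, stood at 123 and 129 FPKM in ferret and 16.1 and 16.4 in mouse libraries, with a log2 difference of 2.88 (limma, adjusted p = 8.73e-11). Anxa1, the partner of S100A11, had 420 and 412 FPKM in ferret and 726 and 707 in mouse libraries and was not called (log2 difference -0.78). Anxa2, the partner of S100A10, had 466 and 470 FPKM in the mouse libraries. Fgf1, a growth factor exported with S100A13, was called higher in ferret astrocytes, with 116 and 109 FPKM against 32.1 and 34.7. Il1a, the other such cargo, stayed under 1 FPKM in all libraries. Fgf1 and S100a13 were thus both at higher FPKM in ferret libraries, and both were called on the rescaled values, whereas Il1a went the other way. A link between these genes was not tested.

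Myh9, the nonmuscle myosin heavy chain bound by S100A4, had 69.7 and 75.1 FPKM in ferret and 66.5 and 61.1 in mouse libraries and was not called (log2 difference 0.18). Myh10, a related heavy chain, was called lower, with 10.3 and 10.8 FPKM against 52.5 and 52.1. The kinases Stk38 and Stk38l, which S100B activates, were called lower, with log2 differences of -1.35 and -1.10, but not on the rescaled values (-0.98 and -0.78). Iqgap1, a scaffold bound by S100B, was called higher with a log2 difference of 1.14. Cacybp, the calcyclin-binding protein, had 71.9 and 72.8 FPKM in ferret and 36.9 and 38.3 in mouse libraries and was not called (log2 difference 0.93), but was called higher on the rescaled values (1.31).

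Of the receptors for S100 proteins outside the cell, Tlr4, Cd36 and Fgfr1 were called lower in ferret astrocytes. Ager, which encodes RAGE, was under 1 FPKM in all 4 libraries and was not tested, with 0.711 and 0.834 FPKM in ferret and 0.404 and 0.583 in mouse libraries. Bsg, which encodes basigin, a receptor of S100A9, had 358 and 374 FPKM in mouse astrocytes and was not analysed in ferret. Tlr4, a receptor of S100A8, had 0.264 and 0.334 FPKM in ferret and 8.33 and 8.13 in mouse libraries, a log2 difference of -2.83 (limma, adjusted p = 4.94e-10). Cd36 was called lower as well, at 0.058 FPKM in each ferret library, against 4.28 and 3.21 in mouse astrocytes. Fgfr1, which S100B can engage, had 34.8 and 39.6 FPKM in ferret and 113 in both mouse libraries, with a log2 difference of -1.58. Tlr4 and Cd36 are also made by microglia and macrophages, whose markers had the sums given above.

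Other proteins with EF-hands were compared as 34 genes, of which 28 had values in both species and 24 were tested. Of these, 3 were called higher and 10 lower in ferret astrocytes, and 5 and 8 on the rescaled values. Over all tested genes the shares were 13.1% higher and 30.1% lower as deposited, and 19.1% and 21.7% on the rescaled values. The median log2 difference was -0.62 as deposited and -0.23 on the rescaled values. The calmodulin genes Calm2 and Calm3, which encode the same protein, went in opposite directions. Calm2 was called higher, at 597 and 594 FPKM in ferret and 212 and 214 in mouse libraries. Calm3 was called lower, at 37.4 and 40.7 FPKM in ferret and 217 and 222 in mouse libraries.

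The widest gap in this list was that of Rcn3, a calcium-binding protein of the endoplasmic reticulum, with 1.26 and 1.47 FPKM in ferret and 98.4 and 100 in mouse libraries. Its log2 difference was -5.41 (limma, adjusted p = 8.89e-12). Hpcal1, a neuronal calcium sensor, followed with -3.12, the myosin light chain Myl9 with -2.75, Calm3 with -2.46 and the centrin Cetn3 with -2.32. Sparc, a secreted matrix protein with EF-hands and the gene of this list with the highest mean over both species, had 540 and 515 FPKM in ferret and 1424 and 1492 in mouse libraries, a log2 difference of -1.47.

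**Figure D5:**
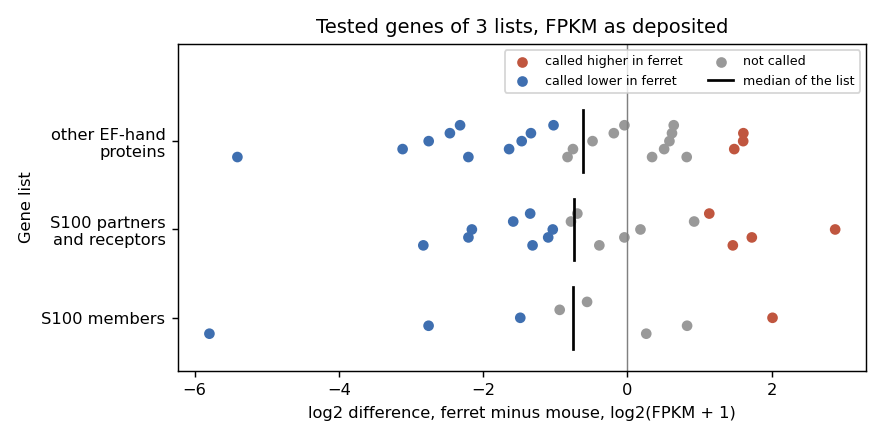
Log2 differences between ferret and mouse astrocytes for the tested genes of 3 lists, with colours for the call and a black line for the median of each list. The medians are -0.75 for the 8 S100 members, -0.74 for 18 partners and receptors and -0.62 for 24 other EF-hand genes, and each list holds genes called in both directions.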

How the data were processed

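The libraries analysed, 2 for each species, came from stranded, polyA-selected RNA of cultured ferret and mouse astrocytes. Reads were converted with bcl2fastq (version 2.17). The authors aligned the reads with STAR (version 2.7.0f) to the Ensembl genome of each species and deposited FPKM per gene from Cufflinks (version 2.2.1), normalized to mapped fragments and exon length. The deposited files used here hold FPKM without read counts. The study lists counts in its supplement, which were not used here, so low values carry no counting interval, and an exact 0 is reported as listed at 0. A gene model of another length changes FPKM.

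Symbols were matched in upper case, and the row with the highest species mean was used. limma (version 3.58.1, R 4.3.3, trend) compared log2(FPKM + 1) between the species. The 10204 genes tested reached a species mean of 1 FPKM in ferret or mouse. This scale understates changes of scarce transcripts. On simulated data for these 10204 genes, 99% of 200 genes changed by a log2 value of 1.5 were called and 0 others. The simulated noise was the spread between duplicates, without a difference in library sums between species. The result therefore does not measure how often calls between species are wrong. The mix was planned for 9 S100 genes and computed for the 7 with values in both species. Percentiles are ranks of FPKM within a library.

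Named were all members, other S100 symbols, genes of the partner list, Gfap, markers beside a member, and of the other EF-hand genes the 5 with the largest differences among those called and the 3 with the highest means. Some items that these rules take in are not reported here. Members and lists were chosen with earlier results of these data known. Mouse coordinates and sequences are from GENCODE M21 on GRCm38, the authors' build, in another annotation release than theirs. Loops were found with a canonical EF-hand pattern and Biopython (version 1.88) alignments to S100b. Alternatives were 3 other scalings, a pseudocount of 0.1, no filter or a minimum of 5, summed rows, the replicate number as a block, and each library left out. Replicate numbers come from the labels alone, and the species are from different animals.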

Additional observations from a re-analysis of the deposited data

How the results depend on the processing

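The log2 differences of the 8 members kept their direction under all alternatives that gave a value, and S100b, S100a4, S100a6 and S100a16 stayed called. S100a8 was not tested without ferret replicate 2 or with a minimum mean FPKM of 5. S100a13 was called higher at 1.22 after either rescaling and at 1.19 after quantile normalization, so that 2 members were then called higher in place of 1. S100a1 ranged from -1.003 to -0.874 with each library left out, and was called lower without mouse replicate 1. With a pseudocount of 0.1 the difference of S100a4 was -6.34. Of 18 partners tested, those called lower fell from 8 to 5 after rescaling to 1000000. They fell to 4 after rescaling to the mean library sum or quantile normalization. The share of all tested genes called lower fell as well, from 30.1% to 24.9%, 21.7% and 20.4% under these scalings in turn. Of 24 other EF-hand genes tested, those called higher rose from 3 to 7, 5 and 6 under the same scalings. The share of all tested genes called higher rose too, from 13.1% to 21.5%, 19.1% and 20.4%. S100a6 made up 67.6% of the ferret and 76.9% of the mouse sum without S100b. Of all S100 genes of each species' file it made up 55.2% and 56.3%, sums that hold different genes. In mouse astrocytes it made up 56.4% with S100a10 and S100a11 added. Ranked among the tested genes only, S100a4 was at percentile 17.7 in ferret and 97.6 in mouse, and S100b at 99.02 and 90.2. Same-numbered libraries did not deviate together (r = 0.01 across 10204 genes, which are not independent replicates), and the fit with the replicate number as a block left each member's call as it was, with S100b at 2.01 and 1 member called higher and 3 lower. Precision was lowest for S100a4 and S100a8 in ferret astrocytes, where duplicates were 1.81 and 2.34 times apart. The study's read counts were not used here.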
